A study of Mus musculus with 19 samples.

Results

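CD5L KO and WT mice that had both received rCD5L were compared after unilateral ureteral obstruction (UUO). The comparison was chosen by group label and held 10 of the 19 kidneys measured by bulk RNA-seq, 5 from CD5L KO mice and 5 from WT mice. The question was which differences between the genotypes were seen when both genotypes were supplied with the protein. All mice were males of 8 to 9 weeks on a C57BL/6J background. Their left ureter was tied off, they received rCD5L into the peritoneum every day at 0.5 mg per mouse, and the obstructed left kidney was taken on day 12 after perfusion with heparin. The other 9 kidneys came from mice of the same kind given PBS, 4 CD5L KO and 5 WT. How the KO allele was made, and whether KO and WT mice were littermates, is not given in the sources used here. The rCD5L was mouse protein made in hamster cells and was given to every one of the 10 mice, so the comparison has no arm without the protein. The kidneys were sequenced whole, and therefore fewer cells of a type and less RNA per cell cannot be told apart.

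CD5L, also called AIM, is a circulating protein of the scavenger receptor cysteine-rich family that is made mainly by tissue macrophages and is carried in blood on IgM. It is known to bind debris of dead cells and to be taken up by tubular epithelium of the injured kidney. In UUO, retained urine injures the tubules, immune cells enter, and fibroblasts and myofibroblasts deposit collagen. Nrf2, a transcription factor held in the cytosol by Keap1, is known to switch on genes for antioxidant enzymes and glutathione metabolism under oxidative stress.

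Counts per kidney, the number of reads assigned to genes, ranged from 18694817 to 23847090. Levels are given below as CPM, counts relative to a TMM-scaled library total, and differences as log2 fold changes of CD5L KO against WT, so that positive values are higher in CD5L KO. Values of single kidneys are listed in the order of replicates 1 to 5. Cd5l itself (chromosome 3, 87357881 to 87371073 of GRCm38) had 0 counts in all 5 CD5L KO kidneys, which allows up to 3 counts per kidney. The WT kidneys had 9, 3, 15, 3 and 11 counts. The injected protein carries no RNA, and Cd5l was near the limit of detection in WT kidneys too. Of the markers of kidney cells examined, those of proximal tubule (Lrp2, Slc34a1, Cubn), thick limb (Umod, Slc12a1), distal tubule (Slc12a3), collecting duct (Aqp2), podocytes (Nphs1), endothelium (Pecam1, Kdr), macrophages (Adgre1, Csf1r) and fibroblasts (Pdgfra, Col1a1) were all above 20 CPM in each of the 10 kidneys. The T cell marker Cd3e lay between 1.45 and 6.83 CPM and the B cell marker Cd79a between 0.996 and 3.56 CPM. The urothelial genes Upk1b (7.68 to 39.2 CPM) and Krt5 (29.4 to 93.6 CPM), the epididymal gene Gpx5 (6.24 to 24.3 CPM) and the fat gene Adipoq (2.33 to 18.5 CPM) were present in every kidney of both groups, whereas the epididymal Lcn8 reached at most 4 counts.

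Of the 10 kidneys, 2 stood apart, and both were CD5L KO. Replicate 4 had 10.3% of its counts in mitochondrially encoded genes, against 2.34% to 3.93% in the other 9, a TMM factor of 0.682 against 0.874 to 1.07, and a score of 134 on the first principal component of all 19 kidneys, which carried 33.6% of the variance. Its median correlation with the other kidneys was 0.932. Relative to the mean of the WT kidneys, 674 genes were more than 2 log2 units higher in it and 699 more than 2 lower, of 17360. Replicate 3 lay at -82.2 on the second component (12.4% of the variance), with a median correlation of 0.965. It held 36 such higher and 196 such lower genes, while CD5L KO replicates 1, 2 and 5 held 3 to 22 higher and 8 to 45 lower. Replicate 3 also stood apart in an RNA named after its values were seen. The small nuclear RNA Rn7sk was at 2.77, 2.62, 106, 1.84 and 3.37 CPM in the CD5L KO kidneys and at 1.63 to 3.09 CPM in the WT kidneys. The mitochondrial ribosomal RNA mt-Rnr1 was at 997 CPM in replicate 3 and 919 CPM in replicate 4, and between 162 and 276 CPM in the other 8. Results are therefore given with both kidneys and without them, a comparison chosen after seeing the data.

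**Figure D1:**
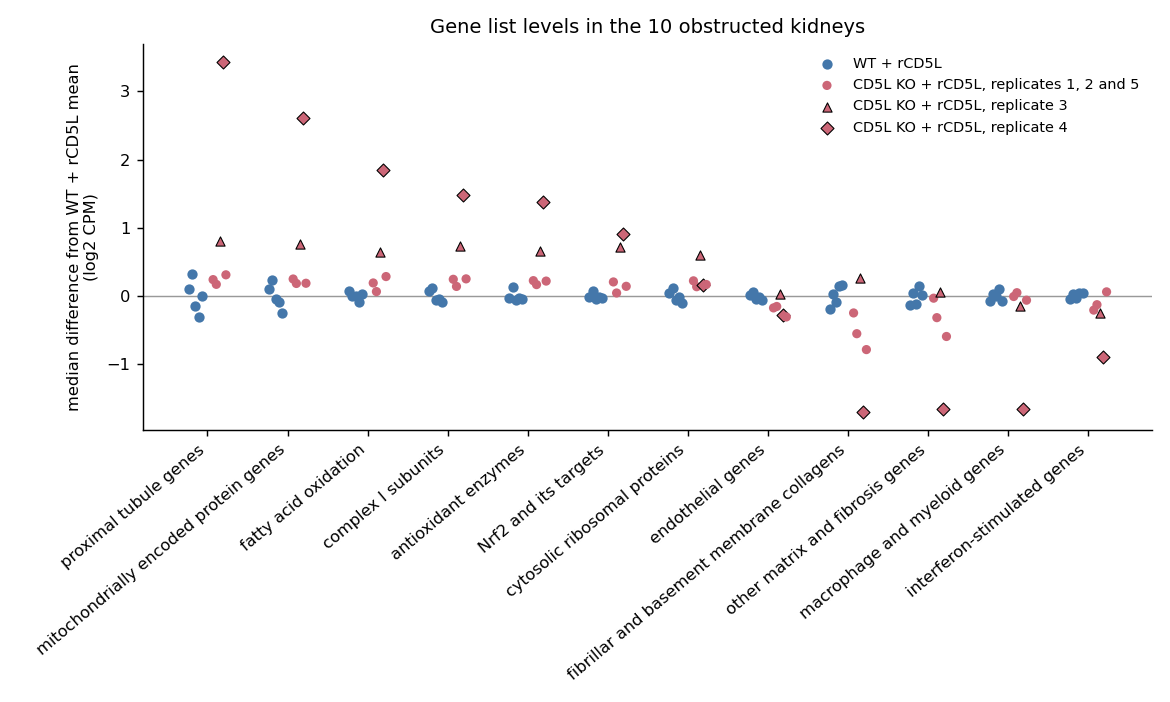
Level of 12 gene lists in the 10 kidneys, as the median over the list's genes of the log2 CPM difference from the WT + rCD5L mean (vertical axis). Each point is 1 kidney. CD5L KO replicate 4 reached 3.44 for proximal tubule genes and -1.70 for collagens, and replicates 1, 2 and 5 stayed within 1 log2 unit of the WT mean in every list shown.

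Across all genes, no gene passed the test with all 10 kidneys. Of 17360 genes, edgeR's quasi-likelihood test called 0 (0.0%) at an adjusted p under 0.05, and the smallest adjusted p was 0.191. At an unadjusted p under 0.05 there were 3090 genes, 1910 higher and 1180 lower in CD5L KO. The 5 CD5L KO kidneys lay entirely above the 5 WT kidneys for 801 genes (4.61%) and entirely below them for 502 (2.89%). The biological coefficient of variation was 27.0%, and it was 17.7% without replicate 4 and 11.5% without replicates 3 and 4. The 9 kidneys of mice given PBS had 12.6%. DESeq2 on the same 10 kidneys called 64 genes, 21 higher (0.0667%) and 43 lower (0.137%). limma's voom with sample quality weights, which weighted replicate 3 at 0.112 and replicate 4 at 0.0751 and the other 8 kidneys at 0.983 to 2.49, called 757 genes, 276 higher (1.59%) and 481 lower (2.77%). Without replicates 3 and 4, edgeR called 644 of 18012 genes, 292 higher (1.62%) and 352 lower (1.95%). With all 19 kidneys in 1 fit, which shares the spread over the 4 groups, edgeR called 929 higher (5.03%) and 362 lower (1.96%). The analysis with voom weights and the one without replicates 3 and 4 shared 531 genes, which is 70.1% of the first and 82.5% of the second, and all 531 had the same direction in both. Both analyses rest largely on the same 8 kidneys, so this overlap is no independent support. Below, a gene is said to be called only with the analysis that called it.

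On the higher side, genes were chosen for the smallest p among those whose groups did not overlap. Calls of such genes without replicates 3 and 4 or with voom weights use kidneys that served for this choice. They are therefore no independent support. The first was Gsta2, a glutathione transferase that couples glutathione to toxic compounds. It measured 151, 97.1, 162, 169.9 and 139.9 CPM in CD5L KO and 67.3, 74.8, 71.7, 50.9 and 70.3 CPM in WT, so that the lowest CD5L KO kidney was above the highest WT kidney. The log2 fold change was 1.08 ± 0.16 (SE) with an adjusted p of 0.191 in edgeR. It was 0.94 (adjusted p = 0.0101) without replicates 3 and 4, and 0.86 (adjusted p = 0.00894) with voom weights. Gsta2 was also the 1 gene that edgeR called when CD5L KO replicate 2 was left out. Its reads may in part belong to close relatives, since the genes of the alpha class are near-identical.

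Timd2, a receptor for ferritin of the TIM family, measured 83.9, 73.0, 112, 197 and 94.0 CPM in CD5L KO and 44.3, 55.2, 45.1, 57.3 and 44.2 CPM in WT. Replicate 4 was the highest, but the 3 kidneys that did not stand apart were also above every WT kidney (log2 fold change 1.16 ± 0.24 (SE), edgeR adjusted p = 0.259; 0.76, adjusted p = 0.0100, without replicates 3 and 4). Slc51a, a subunit of the basolateral transporter of bile acids and steroids, measured 56.9, 50.5, 113, 104 and 58.8 CPM against 31.99, 39.0, 45.5, 32.5 and 38.5 CPM, with replicates 3 and 4 at about the same height. The log2 fold change was 1.005 ± 0.23 (SE), and 0.55 (edgeR adjusted p = 0.0217) without those kidneys.

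A further 8 genes of this rank were Shf, Fuom, Lamtor4, Mrpl55, Elp5, Dctpp1 and the pseudogenes Dynlt1-ps1 and Rps2-ps13, with log2 fold changes of 0.41 to 0.86. Fuom handles fucose, Lamtor4 belongs to the complex that anchors mTORC1 to lysosomes, Mrpl55 to the mitochondrial ribosome, and Dctpp1 removes unusable nucleotides. With replicates 3 and 4 left out, edgeR called all 8, from 0.32 for Elp5 and Rps2-ps13 to 0.61 for Shf. Over all genes 1.62% were called higher there, but these 8 had been chosen on the same kidneys. Reads of the pseudogenes may in part belong to their parent genes, which was not tested.

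On the lower side, 12 genes were chosen in the same way. Setbp1, a nuclear protein that binds the SET protein, measured 21.997, 21.981, 17.7, 19.3 and 18.7 CPM in CD5L KO and 33.2, 32.1, 28.8, 34.2 and 33.5 CPM in WT. Its groups were far apart relative to their spread (-0.72 ± 0.10 (SE), edgeR adjusted p = 0.191), and it was called without replicates 3 and 4 (-0.64, edgeR adjusted p = 0.00997). Peg3, an imprinted zinc finger gene expressed from the paternal copy, measured 34.4, 39.7, 29.1, 22.4 and 39.3 CPM against 61.1, 62.4, 62.4, 56.9 and 56.6 CPM (-0.88 ± 0.15, SE). Itga9, an integrin subunit that binds tenascin and other matrix proteins, measured 45.4, 40.01, 49.9, 29.6 and 36.6 CPM against 63.9, 65.2, 59.5, 70.7 and 66.0 CPM. For Itga9 the value hardly moved with the kidneys left out, from -0.71 ± 0.13 (SE) to -0.69 (edgeR adjusted p = 0.00467).

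Sned1, a matrix glycoprotein, measured 20.7, 25.6, 13.6, 10.7 and 17.3 CPM in CD5L KO and 44.8, 31.4, 41.2, 41.2 and 37.8 CPM in WT. It had the largest difference of the 12 with all 10 kidneys, though not without replicates 3 and 4 (-1.17 ± 0.22 (SE); -0.90, edgeR adjusted p = 0.0102, without replicates 3 and 4). Svep1, a large matrix protein that binds integrin alpha 9 and was named after its values were seen, measured 61.6, 77.7, 77.3, 46.6 and 56.1 CPM against 103, 99.3, 84.6, 124 and 120.3 CPM. Its log2 fold change was -0.76 ± 0.16 (SE), and -0.71 (edgeR adjusted p = 0.0204) without replicates 3 and 4. Pde3a, which breaks down cyclic AMP, the matrix gene Vwa2, Fndc3b, the amino acid transporter Slc43a1, and Nbea, Tcp11l2, Asb4 and Gm42047 made up the rest, between -0.47 and -1.12. When replicates 3 and 4 were left out, edgeR called each of these 8, between -0.43 for Vwa2 and -0.95 for Gm42047. Over all genes 1.95% were called lower there, but these 8 too had been chosen on the same kidneys.

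**Figure D2:**
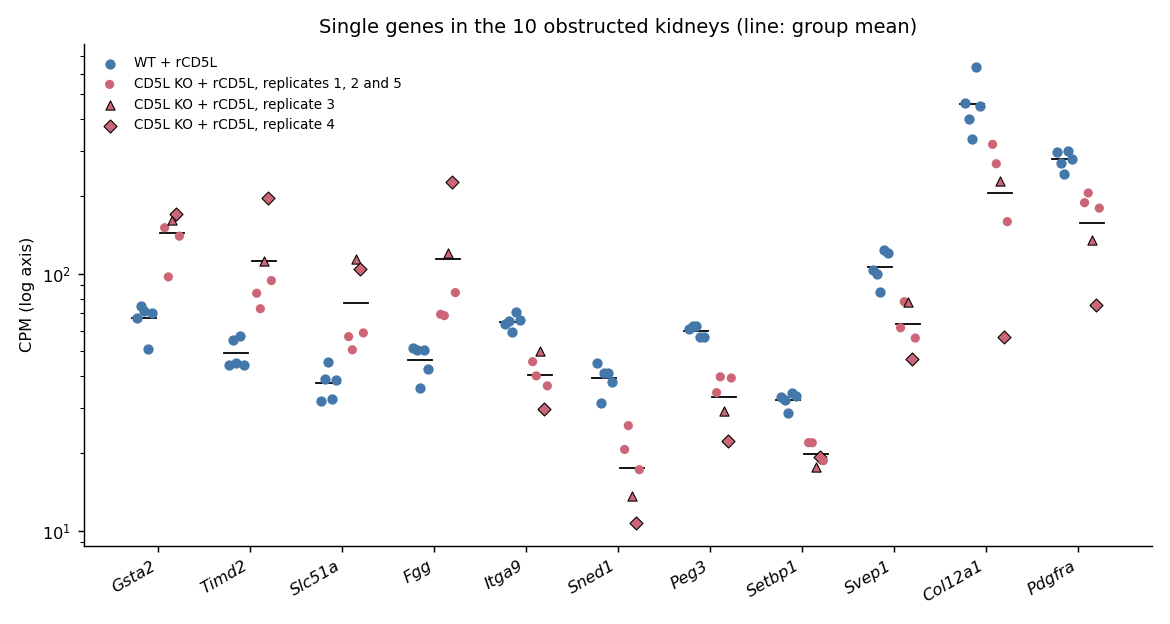
CPM of 11 genes in the 10 kidneys on a log axis, 1 point per kidney, with a line at each group mean (n = 5 per group). The groups did not overlap for any of the 11 genes, from Gsta2 (97.1 to 169.9 CPM in CD5L KO, 50.9 to 74.8 CPM in WT) to Pdgfra (75.4 to 206 CPM in CD5L KO, 244 to 301 CPM in WT), and CD5L KO replicate 4 was often the farthest from WT.

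Collagen and matrix genes were lower in CD5L KO. All 21 fibrillar and basement membrane collagens tested were lower than in WT, with a median log2 fold change of -0.42 beside -0.01 over all genes tested. edgeR called none of them, 7 had an unadjusted p under 0.05, and 3 had groups that did not overlap, beside 2.89% of all genes that were entirely lower. With voom weights 15 of the 21 were called lower and 0 higher, and without replicates 3 and 4 edgeR called 10 lower and 0 higher, beside 2.77% and 1.95% of all genes called lower. Col12a1, a collagen that lies on the surface of fibrils, measured 318, 268, 228, 56.6 and 159 CPM against 461, 399, 333, 638 and 448 CPM (-1.17 ± 0.37, SE). Col3a1, a fibrillar collagen of scar tissue, measured 1562, 1195, 1957, 453 and 955 CPM against 1684, 2026, 2121, 2428 and 2099.7 CPM. Replicate 3 overlapped the WT range for Col3a1 and was the highest of its group, while replicate 4 was the lowest.

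Col1a1, the other main fibrillar collagen, was the most uneven. It measured 1037, 592, 1628, 252 and 432 CPM in CD5L KO and 762, 1076, 964, 1228 and 1194 CPM in WT, so the groups overlapped in both directions and the difference was within the spread between kidneys (-0.44 ± 0.40 (SE), edgeR adjusted p = 0.557; -0.62, adjusted p = 0.134, without replicates 3 and 4), although voom weights called it (-0.77, adjusted p = 0.0488). Col4a5, a basement membrane collagen, was the most even, at 56.7, 60.6, 58.7, 53.3 and 56.7 CPM against 79.6, 67.6, 81.7, 72.3 and 74.5 CPM. Its value of -0.42 ± 0.09 (SE) became -0.38 (edgeR adjusted p = 0.0209) without replicates 3 and 4. Col14a1, which is bound to fibrils, had -0.44 ± 0.11 (SE) and -0.48 (edgeR adjusted p = 0.0209) in the same order.

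Among 27 other genes of matrix and fibrosis tested, 26 were lower and 1 higher, with a median of -0.40. voom weights called 7 lower and edgeR without replicates 3 and 4 called 4 lower, with 0 higher in both, beside 2.77% and 1.95% of all genes. Pdgfra, the receptor that marks fibroblasts, measured 189, 206, 135, 75.4 and 179.8 CPM against 298, 269, 244, 301 and 279 CPM (-0.85 ± 0.23 (SE); -0.55, edgeR adjusted p = 0.0100, without replicates 3 and 4). Fbn1, which builds microfibrils, measured 161, 150.5, 197, 59.7 and 122 CPM against 196, 243, 217, 277 and 253 CPM, and only replicate 3 reached the WT range, by about 1 CPM. Thbs1, a matrix protein that activates latent TGF-beta, did not overlap between the groups, at 229 to 369.8 CPM against 377 to 535 CPM. Acta2, the smooth muscle actin of myofibroblasts, measured 227 to 287 CPM against 265 to 407 CPM (-0.37 ± 0.14 (SE); -0.31, edgeR adjusted p = 0.168, without replicates 3 and 4).

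The marker lists that the study gives for fibroblasts, myofibroblasts and endothelium in its own single-cell data of such kidneys were mostly lower too. Of 61 fibroblast markers 60 were lower (median -0.49), of 23 myofibroblast markers all 23 (median -0.48), and of 66 endothelial markers 58 (median -0.26). voom weights called 24, 12 and 19 of them lower and 0 higher, beside 2.77% of all genes. The medians without replicates 3 and 4 were -0.36, -0.51 and -0.21, and edgeR called 18, 8 and 19 lower, beside 1.95% of all genes. Its lists for other cell types went both ways. Mostly lower were 46 of 55 podocyte markers (median -0.28), 32 of 40 markers of the thin limbs (median -0.24) and 35 of 46 of principal cells (median -0.19). voom weights called 7, 4 and 4 of these lower, again beside 2.77% of all genes. Mostly higher were 48 of 49 proximal tubule markers (median 1.35, and 0.17 without replicates 3 and 4), 21 of 25 markers of injured (median 0.33, and 0.16 without them) and 38 of 52 of acutely injured proximal tubule (median 0.19, and 0.10), and 18 of 23 of urothelium (median 0.29, and 0.36). Without replicates 3 and 4 edgeR called 5, 5, 1 and 1 of them higher and 0 lower, beside 1.62% of all genes called higher. Lists for connecting and distal tubule, both kinds of intercalated cell, thick limb, and repairing and failed-repair proximal tubule had medians between -0.12 and 0.08 with all 10 kidneys. Without replicates 3 and 4 the thick limb median was -0.21, in place of 0.06. voom weights called 4 of 48 connecting tubule, 1 of 37 distal tubule and 3 of 21 thick limb markers lower. For type A and B intercalated cells they called 4 of 39 and 5 of 30 lower. None of these lists had a marker called higher, beside 2.77% of all genes called lower. Of repairing and failed-repair markers, 2 and 0 were called lower and 3 and 1 higher. A shorter list of 15 endothelial genes had 14 lower (median -0.22). In it, Flt1, a receptor for VEGF, measured 48.6, 43.0, 51.1, 62.5 and 48.8 CPM against 67.3, 60.6, 58.5, 57.7 and 58.3 CPM. Here replicate 4 was the one CD5L KO kidney within the WT range, and Flt1 was called without replicates 3 and 4 (-0.38, edgeR adjusted p = 0.0209). Cdh5, the cadherin of endothelial junctions, had -0.26 ± 0.11 (SE) and -0.30 (edgeR adjusted p = 0.0368) in the same order. Pecam1 had -0.22 ± 0.10 (SE) and -0.15 (edgeR adjusted p = 0.156).

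Long genes were lower than short ones on the whole. Of 5 equal groups of genes by length, the shortest, up to 1927 bases, had a median log2 fold change of 0.17, and the longest, from 6894 bases, had -0.14. Spearman's rho of log2 fold change and gene length across 17360 genes was -0.28, and -0.26 without replicates 3 and 4. The collagens had a median length of 7833 bases against 3847.5 bases over all genes tested. An offset for gene length in the model, an alternative added once the values were known, gave the collagens a median of -0.33 with all 10 kidneys, in place of -0.42. When replicates 3 and 4 were also left out it was -0.43, in place of -0.51. In that last analysis calls over all genes fell from 352 lower (1.95%) to 112 lower (0.622%) and from 292 higher (1.62%) to 167 higher (0.927%). edgeR called 6 of the collagens lower in place of 10, 4 other matrix genes as before, and 11, 2 and 5 of the study's fibroblast, myofibroblast and endothelial markers in place of 18, 8 and 19. The medians went from -0.292 to -0.290 for the other matrix genes, and from -0.36 to -0.26, from -0.51 to -0.42 and from -0.21 to -0.17 for the 3 marker lists. The part of gene length in the list's difference was not tested further.

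**Figure D3:**
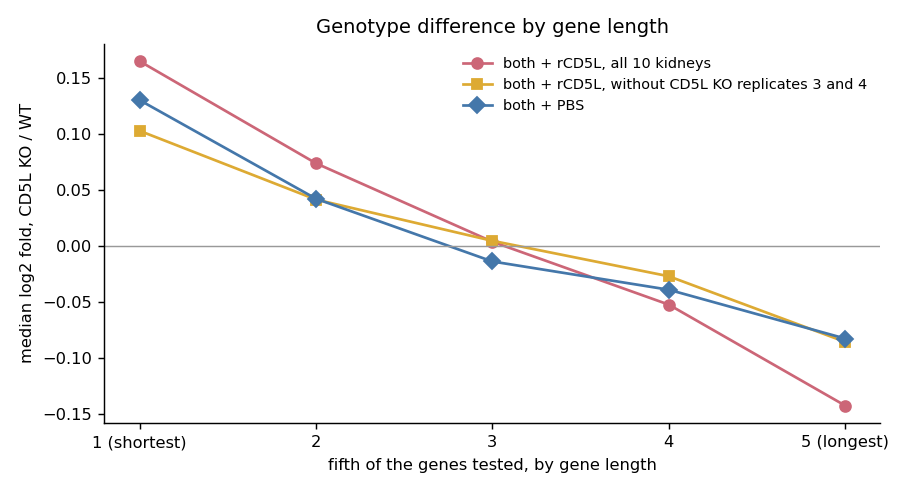
Median log2 fold change of CD5L KO against WT in 5 equal groups of genes ordered by gene length. Red, both given rCD5L with all 10 kidneys; yellow, the same without CD5L KO replicates 3 and 4; blue, both given PBS. All 3 lines go from positive values in short genes (0.17, 0.10 and 0.13) to negative values in long genes (-0.14, -0.09 and -0.08).

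Antioxidant genes were higher in CD5L KO, but unevenly among the 5 kidneys. Of 25 antioxidant enzymes tested, 23 were higher and 2 lower, with a median log2 fold change of 0.58. edgeR called none, 18 had an unadjusted p under 0.05, all of them higher, and 10 had groups that did not overlap, all higher, beside 4.61% of all genes that were entirely higher. The median of the list relative to the WT mean was 0.23, 0.17, 0.66, 1.38 and 0.22 in the 5 CD5L KO kidneys and -0.05 to 0.13 in the WT kidneys. Replicates 3 and 4 thus carried most of the size, and the other 3 were still above each WT kidney. Without replicates 3 and 4 the median was 0.18, and edgeR called 4 of the 25 higher and 0 lower, beside 1.62% of all genes called higher. With voom weights 2 were called higher and 0 lower, beside 1.59% of all genes.

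Gpx4, which reduces lipid peroxides and guards against ferroptosis, measured 558, 467, 1137, 1358 and 494 CPM against 411, 412, 377, 407 and 352 CPM (1.01 ± 0.29 (SE), edgeR adjusted p = 0.259; 0.36, adjusted p = 0.0258, without replicates 3 and 4). Gpx1, the main cytosolic glutathione peroxidase, measured 1469.8, 1231, 2297, 3243 and 1519.9 CPM against 1063, 1241, 1103.6, 1028 and 1077 CPM, where replicate 2 fell within the WT range. Prdx1, a peroxiredoxin, measured 695, 599, 727, 1532 and 618 CPM against 509.7, 559, 506, 539 and 463 CPM, and was called without replicates 3 and 4 (0.29, edgeR adjusted p = 0.0410). Sod1, the cytosolic superoxide dismutase, measured 242, 228, 447, 759 and 239 CPM against 210.3, 223, 194, 216 and 194 CPM. Its groups did not overlap, yet the value of 0.86 ± 0.31 (SE) shrank to 0.18 (edgeR adjusted p = 0.116) without those kidneys. Gpx3, the plasma glutathione peroxidase that proximal tubules secrete, measured 4599, 4478, 12116, 30828 and 5252 CPM against 4184, 4865, 3406, 3153 and 3648 CPM, so its value of 1.55 ± 0.51 (SE) rested on replicates 3 and 4 (0.30, edgeR adjusted p = 0.150, without them).

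Of 30 genes for Nrf2, Keap1 and known Nrf2 targets, 26 were higher and 4 lower (median 0.48; 0.12 without replicates 3 and 4). edgeR called none with all 10 kidneys, and 4 had groups that did not overlap, all higher, beside 4.61% of all genes that were entirely higher. Without replicates 3 and 4 edgeR called 3 higher and 0 lower, as did voom weights, beside 1.62% and 1.59% of all genes. Gsta2, described above, is one of them, and the transferase Gstm1 is another, at 327, 341, 520.3, 746 and 343 CPM against 275, 314, 279, 256 and 274 CPM (0.68 ± 0.22 (SE); 0.26, edgeR adjusted p = 0.0467, without replicates 3 and 4). Osgin1, a stress-induced regulator of growth, also separated the groups, at 21.4 to 114 CPM against 15.4 to 19.7 CPM, but missed the threshold without replicates 3 and 4 (0.35, edgeR adjusted p = 0.0579). Nfe2l2, which encodes Nrf2, did not share the direction, at 190.0, 192, 148, 173 and 208 CPM against 189, 185, 195, 189 and 188 CPM (-0.08 ± 0.11 (SE), edgeR adjusted p = 0.730). Nqo1, a quinone reductase, measured 26.3, 18.1, 41.0, 116 and 27.0 CPM against 20.7, 23.5, 18.7, 17.98 and 16.0 CPM, and Hmox1, heme oxygenase, measured 52.9, 57.4, 129, 106 and 71.4 CPM against 58.8, 60.3, 52.6, 63.4 and 48.8 CPM. Both overlapped between the groups, with replicates 3 and 4 far above the WT kidneys. Gclm, a subunit of the enzyme that starts glutathione synthesis, measured 155, 136, 181, 477 and 137 CPM against 129, 134, 119.8, 140.2 and 142 CPM, and Txnrd1, thioredoxin reductase, 154, 122.8, 210.1, 245 and 121 CPM against 119, 134, 127, 135 and 137 CPM. Neither was called once replicates 3 and 4 were left out (Gclm 0.09, edgeR adjusted p = 0.488; Txnrd1 0.01, edgeR adjusted p = 0.968).

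Nrf2 binds the antioxidant response element, whose core reads TGACNNNGC. Searched on both strands from 250 bases before to 50 bases after the start of transcription, this core stood in 7 of the 29 RefSeq promoters (GRCm38.p6) matched to 24 of the 30 genes, and in 3338 of all 32851 promoters (10.2%). It is shown here in the 4 genes whose values are given above. Each is read along the gene's strand with the core, or its reverse complement GCNNNGTCA, in capitals.
Prdx1, chr4:116685456-116685484, plus strand: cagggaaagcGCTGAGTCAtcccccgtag
Gclm, chr3:122245413-122245441, plus strand: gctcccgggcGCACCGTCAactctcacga
Txnrd1, chr10:82859104-82859132, plus strand: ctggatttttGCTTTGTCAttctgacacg
Nfe2l2, chr2:75704885-75704913, minus strand: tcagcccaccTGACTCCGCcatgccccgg
Of these 4, Prdx1 was called without replicates 3 and 4 and the other 3 were not. A match of letters in such a window does not show a site in use.

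Glutathione transferases, which attach glutathione to reactive compounds, were also mostly higher. Of 23 tested, 19 were higher and 4 lower (median 0.55). voom weights called 7 higher and edgeR without replicates 3 and 4 called 6 higher, where the median was 0.25, and 0 were called lower, beside 1.59% and 1.62% of all genes called higher. Gstt1 measured 120.3, 115, 160.3, 232 and 123.2 CPM against 93.2, 97.5, 93.2, 88.1 and 90.7 CPM (0.67 ± 0.18 (SE); 0.36, edgeR adjusted p = 0.0119, without replicates 3 and 4). Gstm5 measured 128, 109, 134, 204 and 123.4 CPM against 89.7, 106, 91.7, 87.7 and 95.9 CPM. For both genes, all 5 CD5L KO kidneys were above all 5 WT kidneys.

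Most genes of the respiratory chain had positive log2 fold changes, none of them called by edgeR with all 10 kidneys. All 38 complex I subunits tested had positive values (median 0.64), as did all 16 ATP synthase subunits (median 0.70) and 12 of 14 subunits of cytochrome c oxidase (median 0.69). The other 2, named after their values were seen, were Cox6b2 (-0.40, unadjusted p = 0.0168 in edgeR) and Cox4i2, whose sign changed between alternatives. Groups did not overlap for 20, 10 and 9 of the subunits, all higher, beside 4.61% of all genes. Without replicates 3 and 4 the medians were 0.20, 0.22 and 0.23, and edgeR called 5, 3 and 3 higher and 0 lower, beside 1.62% of all genes. With voom weights 6, 1 and 1 were called higher and 0 lower, beside 1.59% of all genes. Ndufb8 of complex I measured 108, 99.6, 179, 218 and 110.4 CPM against 88.7, 94.0, 83.8, 83.7 and 85.9 CPM. Ndufs8 of the same complex measured 104, 96.2, 156, 251 and 94.9 CPM against 85.5, 80.4, 72.8, 75.1 and 74.7 CPM. In both genes the 3 ordinary CD5L KO kidneys lay a little above WT and replicates 3 and 4 far above. Cox5b had 0.68 ± 0.22 (SE) and 0.27 (edgeR adjusted p = 0.0481) without these kidneys, and Atp5l had 0.82 ± 0.25 (SE) and 0.35 (edgeR adjusted p = 0.0223).

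The 12 mitochondrially encoded protein genes tested were all higher, with a median of 1.17 that dropped to 0.20 without replicates 3 and 4. mt-Co1, the catalytic subunit of cytochrome c oxidase, measured 13976, 12716, 17578, 58195 and 13164 CPM against 11433, 11505, 10977, 10328 and 9415 CPM. Cytosolic ribosomal proteins (80 of 85 higher, median 0.24) and core subunits of the proteasome (15 of 17 higher, median 0.34) were less dependent on replicate 4. Without replicates 3 and 4 their medians were 0.16 and 0.20, and edgeR called 9 and 3 higher and 0 lower, beside 1.62% of all genes. Rps26 measured 543, 476, 623, 514 and 467 CPM against 403, 418, 379, 401 and 399.6 CPM, and Rpl29 269.9, 265, 284, 308 and 244 CPM against 213, 235, 206, 213 and 204 CPM. Psmb2, a proteasome subunit, measured 98.4, 89.7, 102, 111 and 90.9 CPM against 74.4, 80.4, 72.9, 75.4 and 77.2 CPM, and Psmb3 had 0.53 ± 0.15 (SE). These 4 genes separated the groups in all kidneys, and edgeR called each without replicates 3 and 4. The lists hold short genes, with a median length of 1438 bases for complex I and 1734 bases for ribosomal proteins, and with the gene length offset their medians over the 10 kidneys were 0.51 and 0.14. Without replicates 3 and 4, adding the offset left 2 calls for complex I, 1 for ATP synthase, 1 for ribosomal proteins and 0 for cytochrome c oxidase and the proteasome core, where calls over all genes also fell, from 644 to 279. The medians went from 0.20 to 0.14 for complex I, from 0.22 to 0.16 for ATP synthase, from 0.23 to 0.11 for cytochrome c oxidase, from 0.16 to 0.12 for ribosomal proteins and from 0.20 to 0.16 for the proteasome core. The antioxidant enzymes had 1 call with the offset in place of 4, with a median of 0.19 in place of 0.18. The glutathione transferases had 2 in place of 6, with a median of 0.17 in place of 0.25. The list of Nrf2 and its targets had 1 in place of 3, with a median of 0.11 in place of 0.12.

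Proximal tubule genes showed how much 1 kidney weighed. All 30 tested were higher in CD5L KO with a median log2 fold change of 1.64, yet the median was 0.44 without replicate 4 and 0.18 without replicates 3 and 4. The list stood 0.24, 0.17, 0.81, 3.44 and 0.31 above the WT mean in the 5 CD5L KO kidneys, and at -0.30 to 0.32 in the WT kidneys. Its summed level was 82335.6 CPM in the highest CD5L KO kidney, against a group median of 8701 CPM and 6224 to 8978 CPM in WT. Lrp2, the endocytic receptor megalin, measured 233, 301, 275, 2172 and 287 CPM against 299, 338, 255, 254 and 299 CPM. Slc34a1, the phosphate transporter, measured 617, 555, 1192, 5919 and 633 CPM against 603, 693, 438, 400.3 and 571 CPM. For both, the kidneys other than replicates 3 and 4 lay within the WT range or next to it. Miox, which breaks down inositol in proximal tubules, measured 139.5, 144, 287, 2826 and 134 CPM against 119, 112, 76.7, 71.7 and 78.5 CPM, with all CD5L KO kidneys above WT (0.59, edgeR adjusted p = 0.0446, without replicates 3 and 4). Ttc36 likewise had all CD5L KO kidneys above WT, at 31.6 to 212 CPM against 24.9 to 29.3 CPM (0.38, edgeR adjusted p = 0.0334, without replicates 3 and 4).

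Fatty acid oxidation, the main fuel use of the proximal tubule, followed the same kidneys. Of 25 genes 24 were higher (median 0.76, and 0.16 without replicates 3 and 4, where edgeR called 7 higher and 0 lower, beside 1.62% of all genes). With voom weights 2 were called higher and 0 lower, beside 1.59% of all genes called higher. Ehhadh, a peroxisomal enzyme of the pathway, measured 167, 131, 287, 1477 and 164 CPM against 129, 110.2, 107, 110.2 and 111 CPM. Eci1 of the mitochondrial pathway measured 67.0, 59.1, 76.0, 136 and 63.3 CPM against 51.6, 53.8, 50.5, 47.0 and 49.1 CPM. Both separated the groups in all kidneys. Of 20 genes of the distal nephron and collecting duct 19 were higher (median 0.27, and 0.04 without replicates 3 and 4). Among them Klk1, the tissue kallikrein of connecting tubules, measured 394, 239, 189, 2214 and 410.3 CPM against 194, 237, 214, 121 and 205 CPM (0.83, edgeR adjusted p = 0.0386, without replicates 3 and 4). Slc12a1, the salt transporter of the thick limb, measured 173, 230.5, 181, 994 and 202 CPM against 339, 258, 301, 274 and 281 CPM. Replicate 4 was the highest of all 10 kidneys and the other 4 CD5L KO kidneys were below every WT kidney, so its value of 0.27 ± 0.46 (SE) turned to -0.54 (edgeR adjusted p = 0.0228) without replicates 3 and 4. All 10 podocyte genes tested were lower (median -0.36, and -0.15 without replicates 3 and 4). Nphs1, nephrin of the slit diaphragm, measured 40.8, 33.9, 26.9, 21.7 and 32.8 CPM against 39.8, 43.8, 52.2, 38.7 and 47.3 CPM. Podxl did not overlap between the groups, at 224 to 308 CPM against 311 to 379 CPM, but edgeR called neither podocyte gene under either set of kidneys (adjusted p = 0.259 for both with all 10, 0.0986 and 0.120 without replicates 3 and 4).

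Medians of the immune lists depended on replicate 4. Of 27 macrophage and myeloid genes 22 were lower (median -0.23), but the median was -0.01 without replicate 4 and -0.01 without replicates 3 and 4, and voom and edgeR called 0 of them in each analysis. The list stood at -1.66 in replicate 4 and at -0.15 to 0.05 in the other CD5L KO kidneys. The study's own macrophage markers (54 of 59 lower) and B and T cell markers (51 of 56 lower) had medians of -0.29 and -0.37, and of -0.16 and -0.23 without replicate 4. voom weights called 4 and 3 of them lower, and edgeR without replicates 3 and 4 called 4 and 2 lower, beside 2.77% and 1.95% of all genes. Adgre1, the macrophage marker F4/80, measured 98.4, 119, 75.8, 33.6 and 118 CPM against 109.7, 124, 105, 124 and 99.7 CPM. Csf1r, the receptor for macrophage growth factor, was lower in each of the 5, at 112 to 291 CPM against 297 to 340.3 CPM (-0.46 ± 0.22 (SE), edgeR adjusted p = 0.288; -0.26, adjusted p = 0.115, without replicates 3 and 4). Tnf did not overlap either, at 0.996 to 3.28 CPM against 3.61 to 4.90 CPM (-0.86 ± 0.26 (SE), edgeR adjusted p = 0.259; -0.60, adjusted p = 0.0927, without replicates 3 and 4).

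Genes for T and NK cells (16 of 17 lower), MHC class II and antigen presentation (11 of 16 lower), interferon-stimulated genes (23 of 25 lower) and cytokines and chemokines (23 of 37 lower) had medians of -0.34, -0.03, -0.20 and -0.06, and of -0.02, 0.04, -0.08 and 0.04 without replicates 3 and 4. Ccl2, the chemokine that attracts monocytes, measured 50.7, 40.1, 34.5, 9.50 and 50.7 CPM against 33.6, 45.9, 37.3, 37.2 and 30.8 CPM (-0.01 ± 0.34 (SE), edgeR adjusted p = 0.986; 0.34, adjusted p = 0.108, without replicates 3 and 4). Rsad2, an antiviral gene induced by interferon, measured 41.0, 36.1, 28.7, 32.5 and 41.9 CPM against 51.7, 50.9, 44.6, 45.8 and 44.7 CPM and was called with voom weights (-0.31, adjusted p = 0.0451) but not by edgeR without replicates 3 and 4 (-0.27, adjusted p = 0.0636). Iigp1, another gene of the interferon list and named after its values were seen, was called higher in both analyses (0.50, adjusted p = 0.0266, with voom weights; 0.50, edgeR adjusted p = 0.0209, without replicates 3 and 4). It measured 79.4, 91.6, 37.96, 47.6 and 106 CPM against 59.7, 72.6, 59.2, 62.9 and 69.4 CPM, so replicates 3 and 4 were below every WT kidney and the other 3 above. The complement protease gene Cfi was higher, at 68.0, 75.9, 52.5, 42.5 and 66.7 CPM against 46.1, 57.6, 43.6, 44.8 and 51.4 CPM, and was called without replicates 3 and 4 (0.52, edgeR adjusted p = 0.0161). Of 24 proliferation genes 18 were lower (median -0.14), with 0 called with voom weights or without replicates 3 and 4. Of 21 markers of tubular injury, 9 were higher and 12 lower (median -0.02, and 0.09 without replicates 3 and 4). Havcr1, which encodes KIM-1 of injured proximal tubules, measured 622, 645, 831, 289 and 713 CPM against 466, 549, 447, 610.1 and 483 CPM, and 4 of the 5 CD5L KO kidneys were above every WT kidney. It was called with voom weights (0.38, adjusted p = 0.0493), and it missed the threshold without replicates 3 and 4 (0.36, edgeR adjusted p = 0.0530).

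Immunoglobulin genes varied widely between kidneys. Of 361 in the table, 169 had 0 counts in all 10 kidneys and 35 were tested, 21 of them higher (median 0.38, which turned to -0.35 when CD5L KO replicate 2 alone was left out). The list stood at 0.29, 1.65, -0.14, -1.57 and 0.53 in the CD5L KO kidneys and at -0.78 to 0.89 in the WT kidneys. With voom weights 31 of 35 were higher (median 1.01) and 3 were called higher, and without replicates 3 and 4 45 of 60 were higher (median 0.72) and edgeR called 4 higher, beside 1.59% and 1.62% of all genes. Some of the 60 may have passed the filter on low counts through CD5L KO replicates 1, 2 and 5 alone. The 45 of 60 and the median of 0.72 may therefore be set in part by the filter. Ighg3, a heavy chain constant gene, measured 0.358, 3.48, 0.817, 0.153 and 84.0 CPM in CD5L KO and 0.0523 to 1.02 CPM in WT, with a log2 fold change of 5.20 ± 1.60 (SE) and replicate 5 far above the rest. Igkv10-94 measured 7.81 CPM in replicate 2 and 5.596 CPM in replicate 5, and under 1 CPM in all other kidneys. The urothelial genes, 11 of 11 higher (median 0.41; 0.62 without replicates 3 and 4), varied widely in both groups, with a summed level of 246 to 476 CPM in CD5L KO and 143 to 436 CPM in WT. Krt15, a basal keratin, measured 58.4, 65.9, 46.4, 33.5 and 51.1 CPM against 33.4, 54.6, 30.1, 12.4 and 28.6 CPM. The summed genes of epididymis, fat, muscle and liver gave 60.3 to 171 CPM in CD5L KO and 46.4 to 91.3 CPM in WT, and those of red blood cells 86.5 to 345 CPM and 38.0 to 355 CPM, with 0 of either list called. Of the 10 genes of epididymis, fat, muscle and liver tested, 9 were higher (median 0.80, and 0.16 without replicates 3 and 4). The part of such neighbouring tissue in other results was not tested.

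Of 28 genes of sphingomyelinases and ceramide, 19 were higher and 9 lower (median 0.10, and 0.00 without replicates 3 and 4). S1pr3, a receptor for sphingosine-1-phosphate, measured 49.7, 41.4, 45.7, 20.0 and 38.2 CPM against 58.7, 54.1, 51.3, 58.5 and 55.2 CPM and was called without replicates 3 and 4 (-0.38, edgeR adjusted p = 0.0334). Cers4, a ceramide synthase, did not overlap between the groups (-0.34 ± 0.11 (SE), edgeR adjusted p = 0.259). Of 23 genes for iron handling and ferroptosis, 13 were higher (median 0.28, and 0.06 without replicates 3 and 4). Of 17 scavenger receptors and relatives of CD5L, 12 were lower (median -0.14). Stab1, a scavenger receptor of sinusoidal endothelium and macrophages, measured 121, 126, 165, 63.9 and 130.2 CPM against 178, 162, 167, 179 and 186 CPM and was called without replicates 3 and 4 (-0.48, edgeR adjusted p = 0.00997). Clock genes had 6 of 16 higher. Among them Nr1d1, the repressor REV-ERB alpha, was lower, at 55.9, 49.1, 72.8, 33.8 and 39.7 CPM against 85.2, 72.3, 101, 64.0 and 88.9 CPM (-0.78, edgeR adjusted p = 0.0200, without replicates 3 and 4), and Cry1, a repressor of the other arm, was higher, at 11.1 to 13.9 CPM against 7.46 to 9.62 CPM (0.46, edgeR adjusted p = 0.0537).

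The same genotype difference was measured in the 9 mice given PBS, which share no kidney with the 10 above. edgeR called 1850 of 17579 genes there, 901 higher (5.13%) and 949 lower (5.4%) in CD5L KO. Of the 1843 that were also tested under rCD5L, 1701 (92.3%) had the same direction, 837 of 898 higher ones and 864 of 945 lower ones. Over all 17163 genes tested in both, 67.6% had the same sign. Of the 1843, 826 had the same direction with an unadjusted p under 0.05 in the rCD5L kidneys (edgeR) and 1 had the opposite direction with such a p. Of all genes tested in these kidneys, 17.8% had such a p in either direction. Their median log2 fold change with PBS was 0.31 for the higher and -0.33 for the lower genes, and under rCD5L 0.30 and -0.27. Without CD5L KO replicates 3 and 4 these became 0.21 and -0.22, with 96.8% in the same direction and 1197 of those with an unadjusted p under 0.05, beside 21.5% of all genes. Across genes, Pearson's r of the log2 fold changes was 0.37 with all kidneys and 0.41 without replicates 3 and 4, a description over genes that are not independent.

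**Figure D4:**
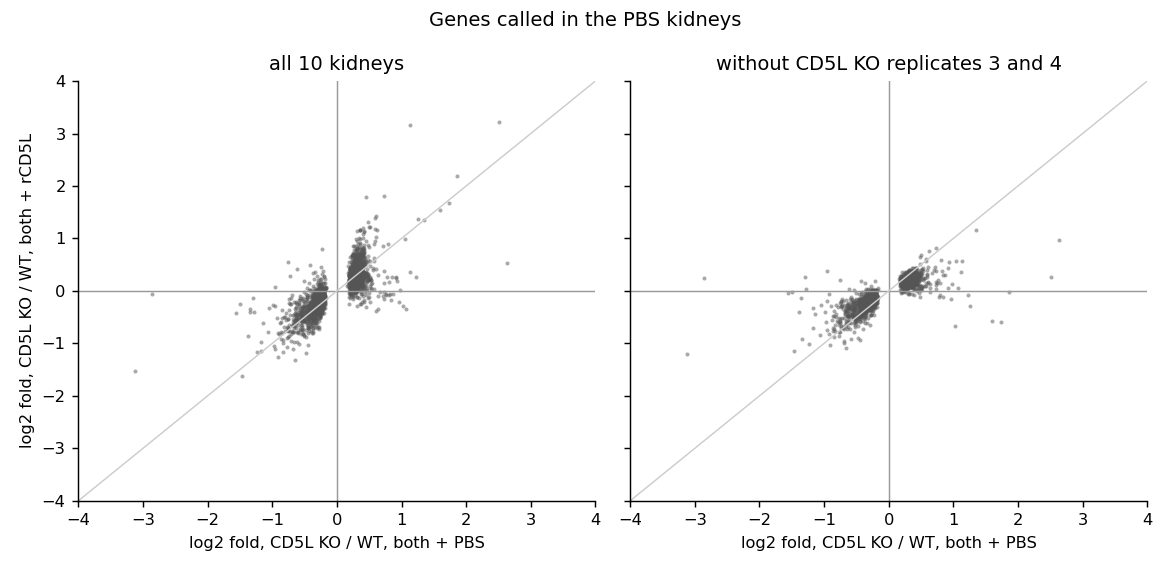
Log2 fold changes of CD5L KO against WT for the 1843 genes called in the PBS kidneys, with PBS on the horizontal axis and rCD5L on the vertical axis, for all 10 rCD5L kidneys (left) and without CD5L KO replicates 3 and 4 (right). Each point is 1 gene and the diagonal marks equal values. Most points lie at the lower left and the upper right, and 92.3% of them have the same sign on both axes in the left panel.

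Matrix genes were lower in both settings. With PBS, edgeR called 16 of the 21 collagens lower and 0 higher (median -0.55), and 13 of 27 other matrix genes lower and 0 higher (median -0.35), beside 5.4% of all genes called lower. Col3a1 had -0.86 (edgeR adjusted p = 0.00643) with PBS and -0.79 with rCD5L, Fbn1 had -0.85 (edgeR adjusted p = 0.00643) and -0.80, Pdgfra -0.50 (edgeR adjusted p = 0.00470) and -0.85, and Itga9 -0.63 (edgeR adjusted p = 0.00497) and -0.71. Timd2 was called higher with PBS (0.63, edgeR adjusted p = 0.00820). Gsta2 was not called there (0.46, edgeR adjusted p = 0.101), with 119 to 173 CPM in the CD5L KO kidneys and 67.8 to 122 CPM in the WT kidneys. Complex I subunits (19 of 39 called higher), ribosomal proteins (62 of 85 called higher) and the proteasome core (12 of 18 called higher) had PBS medians of 0.29, 0.32 and 0.22 and 0 lower calls, beside 5.13% of all genes called higher with PBS. For the proximal tubule list the PBS median was 0.00, for fatty acid oxidation 0.07 and for Nrf2 and its targets 0.03, against 1.64, 0.76 and 0.48 with rCD5L and all 10 kidneys and 0.18, 0.16 and 0.12 without replicates 3 and 4. The antioxidant enzymes (7 of 26 called higher) and the glutathione transferases (5 of 24 called higher) had PBS medians of 0.19 and 0.18 and 0 lower calls, against 0.58 and 0.55 with rCD5L and all 10 kidneys and 0.18 and 0.25 without replicates 3 and 4. Their PBS calls too stand beside 5.13% of all genes called higher.

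**Figure D5:**
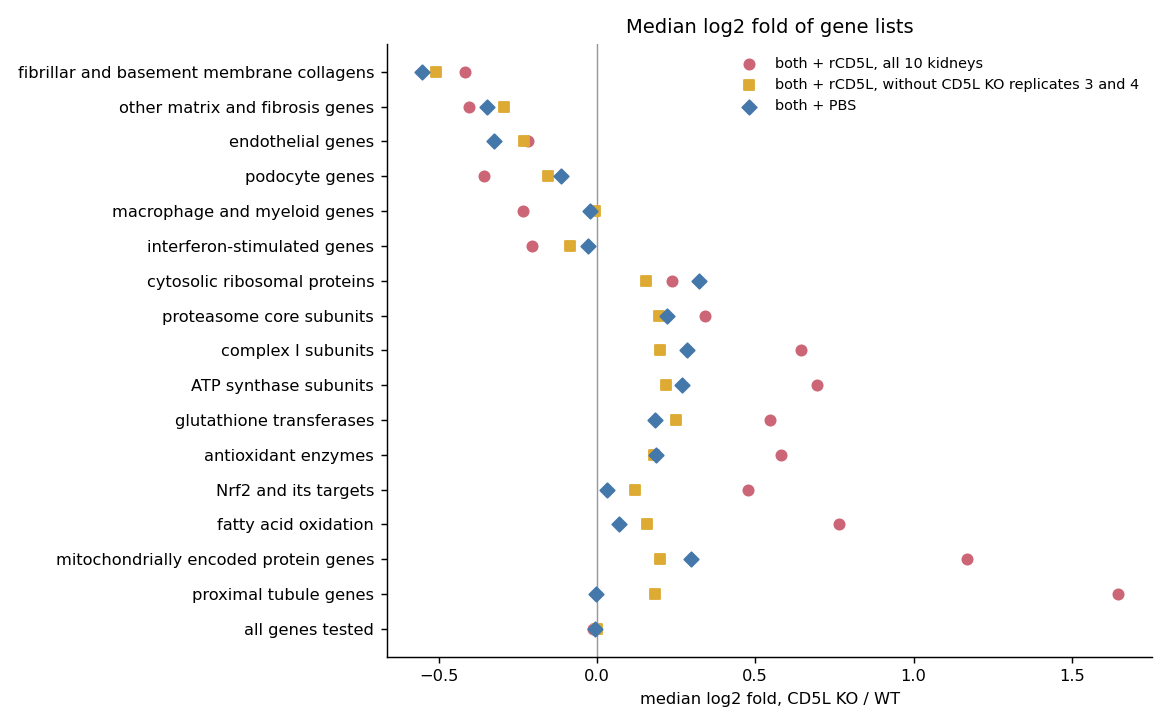
Median log2 fold change of CD5L KO against WT for 16 gene lists and for all genes tested. Red circles, both given rCD5L with all 10 kidneys; yellow squares, the same without CD5L KO replicates 3 and 4; blue diamonds, both given PBS. Matrix lists lie between -0.55 and -0.29 in all 3, while the proximal tubule list goes from 1.64 to 0.18 and 0.00.

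Whether the genotype difference itself changed with rCD5L was tested as the interaction of genotype and protein over all 19 kidneys. edgeR called 0 of 18454 genes (0.0%), with a smallest adjusted p of 0.731 and 1154 genes (6.25%) at an unadjusted p under 0.05. DESeq2 called 0 as well, with 1463 at that p. Without CD5L KO replicates 3 and 4, edgeR called 0 with a smallest adjusted p of 0.422. The genes called with PBS and not with rCD5L are therefore not shown to differ between the conditions. In the fit with all 19 kidneys, 19 of 30 proximal tubule genes and 11 of 30 Nrf2 genes had an unadjusted interaction p under 0.05, all with a more positive genotype difference under rCD5L, in a comparison that contains replicate 4.

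Genes close to an altered allele tend to be inherited together with it, though how this KO allele was made is not given in the sources used here. Those within 10 Mb of Cd5l on chromosome 3 were examined on their own. Of 270 tested, 15 were entirely higher and 5 entirely lower in CD5L KO (7.41% together), beside 4.61% and 2.89% over all genes. With PBS, edgeR called 32 of the 270 (11.9%, beside 10.5% of all genes), and 31 of these had the same direction with rCD5L, beside 92.3% of all genes called with PBS. Groups did not overlap, in the same direction, in both conditions for 8 (2.96%, beside 3.02% of all genes), so the region was near the background in each of these counts. S100a1, a calcium-binding protein 3.14 Mb away, measured 226, 204, 324, 355 and 206 CPM against 168, 194, 173, 146 and 158 CPM (0.62 ± 0.17 (SE); 0.33, edgeR adjusted p = 0.0446, without replicates 3 and 4). S100a10, the partner of annexin A2, had 0.34 (edgeR adjusted p = 0.0399) without those kidneys and 0.46 (edgeR adjusted p = 0.00470) with PBS. Pear1, a platelet and endothelial receptor 0.377 Mb away and the nearest gene named here, measured 69.5, 67.0, 106, 39.97 and 73.7 CPM against 101, 92.9, 90.9, 97.2 and 107 CPM, and was called without replicates 3 and 4 (-0.49, edgeR adjusted p = 0.0100). Lamtor2 and Jtb were entirely higher under both conditions.

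The 3 fibrinogen genes, neighbours on chromosome 3 4.31 to 4.34 Mb from Cd5l and named after their values were seen, were higher together. Fibrinogen is the clotting protein, made mostly in liver and also by injured kidney epithelium. Fgg measured 69.5, 68.6, 121, 228 and 84.4 CPM against 51.4, 50.5, 36.0, 50.4 and 42.4 CPM, and Fga 86.7, 87.8, 182, 304 and 118 CPM against 78.5, 79.2, 49.6, 71.4 and 69.5 CPM. Fgb did not overlap between the groups either, at 14.0 to 38.2 CPM against 8.59 to 13.6 CPM. All 5 CD5L KO kidneys were above all WT kidneys for each gene. Leaving out replicates 3 and 4, edgeR called Fgg (0.68, adjusted p = 0.0140) and neither Fga (0.47, adjusted p = 0.0694) nor Fgb (0.45, adjusted p = 0.107).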

How the data were processed

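Paired reads from random-primed libraries were trimmed (Trimmomatic), mapped to GRCm38 (HISAT2) and summarised by gene (featureCounts) by the authors; versions and the strand setting are not given in the sources used here. The deposited table holds raw counts and, beside them, FPKM values that the authors computed. All columns matched a sample by name, so 0 were left out. Groups were taken from the labels.

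The counts went into edgeR 4.0.16 under R 4.3.3 (TMM, filterByExpr with a minimum count of 10, glmQLFit, glmQLFTest), with Benjamini-Hochberg adjustment over all genes tested, on the 2 groups compared, and on all 4 groups for the interaction. Alternatives used DESeq2 1.42.0, limma 3.58.1 voom weights, RLE factors, other filters, FPKM with pseudocounts 1 and 0.1, a replicate block, a gene length offset and single kidneys left out. List levels use log2 CPM with a prior count of 2. Scripts were tested on simulated data. p-values measure the spread between these kidneys only, and floors cover counting error only.

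Named genes were up to 12 per direction with the smallest p among non-overlapping genes (mean log2 CPM 1 or more), up to 4 per list with the smallest p and its defining genes, genes of the paper, cell type markers, genes within 10 Mb of Cd5l and genes called under both treatments. Genes and lists were chosen with earlier results of these data known. Svep1, Rn7sk, mt-Rnr1, Cox6b2, Cox4i2, Iigp1 and the fibrinogen genes were named after their values were seen. Not every gene that the rule or the marker list names is reported here.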

Additional observations from a re-analysis of the deposited data

Results flagged for a closer look

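Several levels of CD5L KO replicate 4 lay so far from the other 4 kidneys of its group that the gap, as a share of the group's range, exceeded the critical value of Dixon's test at 95% for 5 samples. These were the mitochondrial share of counts (0.890), the first principal component (0.734), and the levels of the macrophage and myeloid genes (0.882), the proximal tubule genes (0.805) and the mitochondrially encoded protein genes (0.760). In WT + rCD5L, replicate 2 lay apart in the level of the antioxidant enzymes (0.856), at 0.13 above the WT mean against -0.05 to -0.02 in the other 4. There were 20 such groups examined and 6 passed, where chance gives about 1 in 20, and the measures of replicate 4 are not independent of each other.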

How the results depend on the processing

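The count of genes called between CD5L KO and WT, both given rCD5L, was 0 with edgeR and stayed at 0 with RLE factors, without a filter, with at least 10 counts in every kidney, with robust spread, with FPKM values at either pseudocount and with the gene length offset. It was 64 with DESeq2, 757 with voom weights, 1291 with all 19 kidneys in 1 fit (929 higher, 72.0% of the calls, against 36.5% with voom weights), and, without CD5L KO replicates 3 and 4, 644 with edgeR, 1540 with DESeq2 and 279 with the length offset. Leaving out single kidneys gave 0 to 1 calls. With the replicate block it was 0 with 1828 genes at an unadjusted p under 0.05, and deviations of same-numbered kidneys had correlations of -0.187 to -0.00179, so same-numbered kidneys share only a number. With PBS, 1850 became 2571 with DESeq2, 2132 with the replicate block and 1371 with the length offset. The interaction had 0 calls in all alternatives run, with the replicate block too.

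Of all 253 genes that the naming rules pick, 37 changed sign under some alternative. Among the 96 genes whose values are described, 6 did. Txnrd1 had -0.00422 with voom weights. Nfe2l2 had 0.032 with voom weights and, without replicates 3 and 4, 0.0423 with edgeR, 0.0393 with DESeq2 and 0.0477 with the length offset. Lrp2 ranged from -0.10 to 1.39 with single kidneys left out, the lowest without CD5L KO replicate 4, and had -0.0882 with edgeR and -0.0913 with DESeq2 without replicates 3 and 4. Slc12a1 ranged from -0.59 to 0.46 with single kidneys left out, the lowest without CD5L KO replicate 4, and had -0.167 with the replicate block, -0.484 with voom weights, -0.130 and -0.138 with FPKM values at pseudocounts 1 and 0.1, and, without replicates 3 and 4, -0.538 with edgeR, -0.541 with DESeq2 and -0.495 with the length offset. Ccl2 ranged from -0.15 to 0.23 with single kidneys left out and had 0.0015 with RLE factors, 0.0116 with all 19 kidneys, 0.296 with voom weights and, without replicates 3 and 4, 0.342, 0.339 and 0.239 in the same order. Iigp1 ranged from -0.0316 to 0.32 with single kidneys left out, the lowest without CD5L KO replicate 5. List medians changed sign under some alternative for 19 of 59 lists, the study's cell type lists included. The cause of these differences was not tested.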
